A study of Mus musculus with 32 samples.

Results

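The blood of Scid mice 24 h after 3 Gy of X-rays was compared directly with the blood of wild-type (WT) mice 24 h after 8 Gy, doses that the series' design text sets at the same lethality for each genotype. The arrays were chosen by their labels alone, 5 labelled Scid 3 Gy and 5 labelled WT 8 Gy, which is 10 of the 32 arrays of the series. All mice were male C57BL/6, and each array holds whole blood of 1 mouse, drawn by cardiac puncture into an RNA stabiliser. After globin reduction, the RNA was labelled with Cy3 for 1-colour Agilent arrays. Sham-irradiated mice (0 Gy) of the same genotypes, 5 labelled Scid and 6 labelled WT, gave the same genotype comparison without irradiation. The remaining arrays, of ATM-/- mice, entered the estimate of spread, the detection filter and the choice of each gene's probe. Genotype and dose change together between the irradiated groups and cannot be told apart.

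Scid mice carry a point mutation of Prkdc, which encodes the catalytic subunit of DNA-dependent protein kinase, the enzyme that holds broken DNA ends for end joining. The same joining step assembles antigen receptor genes, so these mice lack nearly all mature B and T lymphocytes while keeping myeloid, natural killer (NK) and erythroid cells, and their blood differs in cell make-up from that of WT mice before any irradiation. In mice, radiation kills lymphocytes and red cell precursors and induces p53 target genes such as Cdkn1a, and interferon-stimulated genes are antiviral genes that blood leukocytes express.

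Levels below are log2 signal minus the 75th percentile of the same array, and levels of different probes are not compared. Probes had to stand well above background on 4 or more arrays of some group of the series, which left 15157 genes to test. Differences are Scid minus WT on the log2 scale with their standard error (SE), from 1 limma fit of all 32 arrays. The calls use an adjusted p below 0.05 (Benjamini and Hochberg, over all genes tested). Probe positions are in mouse build mm9.

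The irradiated groups differed in array brightness. Between 32.5 and 43.2% of probes were well above background on the Scid 3 Gy arrays (38.1 ± 4.78%, SD, n = 5), against 45.7 to 58.6% on the WT 8 Gy arrays (52.2 ± 5.48%, SD, n = 5). The difference of -14.1 percentage points passed an exact two-sided permutation test (p = 0.00794), with no overlap between the groups, and this p is the smallest that 5 against 5 arrays allow. The 75th percentile of the signal ran from 20.2 to 63.8 in Scid 3 Gy mice and from 127 to 232.0 in WT 8 Gy mice. At 0 Gy the detected share overlapped, at 25.0 to 47.7% for Scid labels and 28.02 to 53.3% for WT labels (25.0 to 41.6% and 34.7 to 53.3% without 3 arrays that went against their labels). Transcripts of hepatocytes were very bright on 4 arrays of the series, 2 of them in WT 8 Gy mice. The mean level of the 17 tested hepatocyte genes was 1.79, -0.62, 0.87, -0.64 and 2.29 in Scid 3 Gy replicates 1 to 5, against 7.31, 7.91, 2.57, 1.0 and -0.37 in WT 8 Gy replicates 1 to 5. WT 8 Gy replicates 1 and 2 thus stood far above the other 8 irradiated arrays, and their part in the results below was not tested beyond the values given without them. Arrays of both irradiated groups shared 2 of the 4 scan days, the first with 2 Scid 3 Gy arrays and only 1 WT 8 Gy array, the hepatocyte-bright replicate 1, and the second with 2 Scid 3 Gy and 3 WT 8 Gy arrays. Scan day and slide are given as alternatives.

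**Figure D1:**
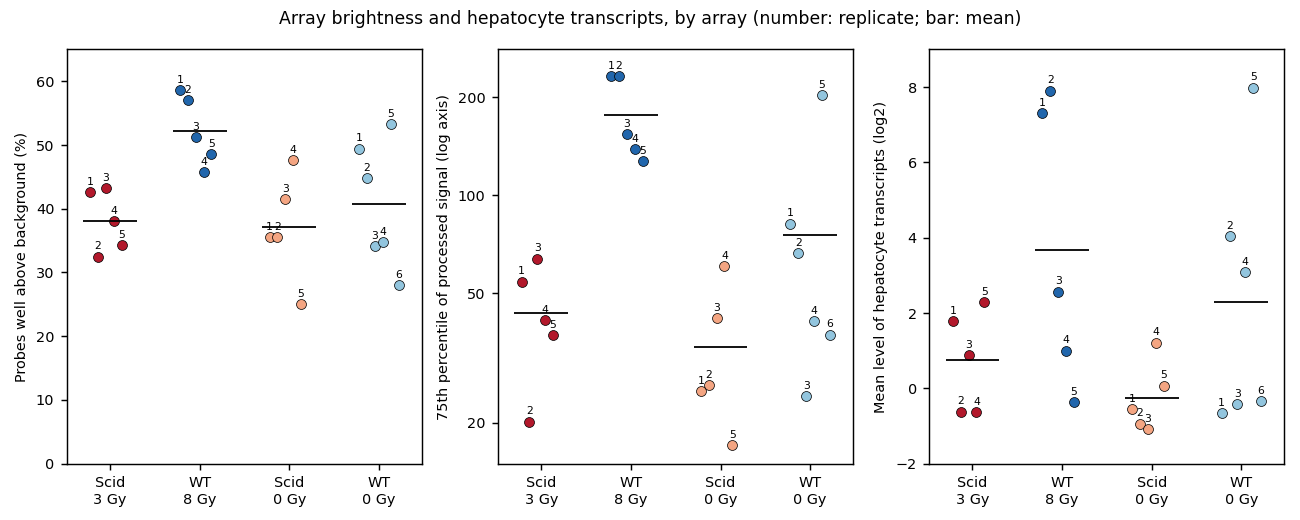
Array brightness and hepatocyte signal for each array of the Scid 3 Gy, WT 8 Gy, Scid 0 Gy and WT 0 Gy groups: the share of probes well above background (%), the 75th percentile of the processed signal (log axis) and the mean level of the hepatocyte genes (log2). Numbers give the replicate and bars the group mean. All 5 Scid 3 Gy arrays lie between 32.5 and 43.2% and below every WT 8 Gy array, and WT 8 Gy replicates 1 and 2 have hepatocyte means of 7.31 and 7.91.

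Some 0 Gy arrays went against their labels. The array labelled Scid 0 Gy replicate 4 carried lymphocyte transcripts at a WT level, with a mean over Cd3d, Cd79b and Ms4a1 of 4.12, while the other 4 Scid 0 Gy arrays lay between -3.44 and -2.01. The arrays labelled WT 0 Gy replicates 3 and 6 had means of -2.52 and -2.51, while the other 4 WT 0 Gy arrays lay between 2.71 and 4.92. In irradiated mice the same mean was -3.69 to -0.78 on the 5 Scid 3 Gy arrays and -0.12 to 2.44 on the 5 WT 8 Gy arrays, without overlap. The labels were kept, and most 0 Gy comparisons in the text are given with and without those 3 arrays, a choice made after the data were seen. Since they were picked by lymphocyte genes, the lymphocyte values without them follow from the choice. The choice also bears on the other 0 Gy values without them. The probes of Prkdc (1) and Atm (2) did not pass the detection filter. Prkdc was well above background on 0 of 5 Scid 3 Gy arrays and 1 of 5 WT 8 Gy arrays, so the targeted gene gives no check of the labels.

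In the irradiated groups, many erythroid and globin transcripts and some mitotic ones were higher in Scid 3 Gy mice, and some T cell, a few B cell and a number of interferon-stimulated transcripts were lower there. Of 15157 genes, 1454 were called (9.59%), 830 higher (5.48%) and 624 lower (4.12%) in Scid 3 Gy mice, with a lowest adjusted p of 0.0219. A count of called list members near these shares is no result about that list. The median difference over all genes was 0.16, and 5921 genes (39.1%) had an unadjusted p under 0.05. The 5 and 5 arrays did not overlap for 1222 genes higher (8.06%) and 984 genes lower (6.49%) in Scid 3 Gy mice. Leaving out the hepatocyte-bright arrays, these shares were 9.14 and 9.55%. Of the 624 genes called lower, 193 were not well above background on any Scid 3 Gy array, and of the 830 called higher, 10 were not well above background on any WT 8 Gy array. Dim probes could pass the detection filter through the brighter WT 8 Gy arrays alone, which favoured calls of lower in Scid 3 Gy mice.

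The calls lay close to the threshold, and their number and their direction moved with the processing. Scaling shifted the median of all genes from 0.16 to -0.07 with quantile normalization (247 higher, 402 lower called), -0.51 with the array median (127 higher, 2082 lower), -0.28 with the 75th percentile of probes detected on all arrays (371 higher, 2118 lower) and -1.16 with spike-in probes (3 higher, 5157 lower). The authors' normalized values gave 262 higher and 3495 lower, and normexp background correction gave 0 higher and 1 lower. No gene was called without WT 8 Gy replicate 1, none without replicate 2, and none without the 4 hepatocyte-bright arrays, where 2313 genes had an unadjusted p under 0.05 in limma. Without the other arrays in turn, 1 gene (Scid 3 Gy replicate 1), 132 (replicate 2), 1247 (replicate 3), 690 (replicate 4) and 655 (replicate 5) were called, and likewise 3506 (WT 8 Gy replicate 3), 273 (replicate 4) and 1596 (replicate 5). Of the 1454 genes, which were chosen by the difference over the same arrays, 1404 had the same direction with brightness as a covariate and 1111 with normexp. Every called gene named below lost its call when 1 or more single arrays were left out, so its difference is given as a size with its error and the levels on the arrays.

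At 0 Gy, no gene was called between Scid and WT labels by limma (499 genes, 3.29%, at an unadjusted p under 0.05), and the test of the difference between the irradiated and the 0 Gy differences called none (1079 genes, 7.12%). Without the 3 arrays against their labels, 3577 genes had an unadjusted p under 0.05 in limma at 0 Gy. By the adjusted p, 302 genes were then called, 38 higher and 264 lower in Scid mice. Of the 302 called, 37 belonged to the B cell, T cell and MHC class II lists, and 80 were also called in irradiated mice, all 80 in the same direction. Over all genes, 9.59% were called in irradiated mice. The arrays were left out by genes that differ between the irradiated groups, so these counts lean toward agreement and carry no test. The difference of the differences then called 8 genes, all 8 more positive in irradiated mice and 5 of them in those lists. The 0 Gy differences also grew without those arrays. Over all arrays, 728 of the 830 genes called higher in Scid 3 Gy mice also had a higher mean in Scid 0 Gy mice, with medians of 1.63 in irradiated and 0.32 in 0 Gy mice (810 genes and 0.78 without the 3 arrays). Of the 624 called lower, 547 had a lower mean at 0 Gy, with medians of -1.65 in irradiated and -0.43 in 0 Gy mice (603 genes and -1.12 without them). Across the 15157 genes, which are not independent replicates, the irradiated and the 0 Gy difference had a Pearson r of 0.63 (0.78 without them) with no array in common. The counts and medians are of genes picked by the irradiated contrast and carry no test. Values without the 3 arrays, r included, also lean toward agreement through the choice of arrays. No share over all genes is set beside the counts, so the counts are no result about the called genes. The median 0 Gy difference over all genes was 0.09 (0.19 without the 3 arrays). Hepatocyte-bright arrays lay in both WT groups (8 Gy replicates 1 and 2, 0 Gy replicate 5) and in neither Scid group. Their part in these counts and in r was not tested.

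Some T cell receptor and signalling genes were lower in Scid 3 Gy mice. Of 32 listed T cell genes, 29 were tested, 9 were called lower and none higher, 11 of the 29 had a higher mean in Scid 3 Gy mice, and the list's median was -0.94 against 0.16 for all genes. Cd3d encodes the delta chain of CD3, the signalling complex of the T cell receptor (chr9:44794171-44794402). Its level was -2.31, 0.60, -3.42, -3.74 and -3.67 in Scid 3 Gy replicates 1 to 5, against 1.77, 0.33, 2.99, 1.97 and 2.90 in WT 8 Gy replicates 1 to 5. Scid 3 Gy replicate 2 alone lay within the WT range, and the probe was well above background on 1 Scid array and all 5 WT arrays. The difference was -4.50 (SE 1.07, adjusted p = 0.0302). In whole blood, fewer cells of a type and less RNA per cell cannot be told apart. Cd3g, the gamma chain of the complex, was not well above background on any Scid 3 Gy array and was at least 4.76-fold lower there (adjusted p = 0.0302).

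Thy1, a surface glycoprotein of T cells (chr9:43856591-43856650), had levels of 1.19, 0.54, 0.60, 1.12 and 0.27 in Scid 3 Gy mice, against 3.05, 1.47, 4.51, 3.25 and 4.04 in WT 8 Gy mice. All 5 Scid arrays were below all 5 WT arrays, with a difference of -2.52 (SE 0.66, adjusted p = 0.0329). Genes of the signalling cascade below the receptor, named here after their values were seen, were lower too: the kinase Zap70 (-2.10, SE 0.50) and the adaptor Skap1 (-2.25, SE 0.61). The adhesion receptor genes Cd6 (-3.65, SE 1.05, adjusted p = 0.0392) and Cd2 (-1.82, SE 0.56, adjusted p = 0.0443; named after its value was seen) were called lower, although another kept probe of Cd6 had a difference of 0.49. Lck, the kinase that starts T cell receptor signalling, had a difference of -1.40 that did not pass (SE 0.57, adjusted p = 0.0803). Cd3e, a further CD3 chain, had levels of 3.79, 4.07, 3.84, 3.70 and 3.00 in Scid 3 Gy mice, against 2.38, 2.22, 4.11, 3.32 and 3.87 in WT 8 Gy mice. These overlapped widely (difference 0.50, SE 0.39, adjusted p = 0.314), unlike Cd3d and Cd3g. WT 8 Gy replicates 1 and 2, the hepatocyte-bright arrays, had the lowest mean T cell levels of their group, 0.16 and -0.49. Without the hepatocyte-bright arrays the list's median was -1.69, and 12 of the 29 genes were lower without overlap, in place of 3. With fewer WT arrays to separate, that share also rose over all genes, from 6.49 to 9.55%. The list's median was 0.25 on the first shared scan day, with its 1 WT array, and -1.24 on the second.

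A few B cell genes were lower in Scid 3 Gy mice, and 1 WT 8 Gy array was nearly as low. Of 34 listed B cell genes, 27 were tested, 3 were called lower and none higher, and 13 of the 27 had a higher mean in Scid 3 Gy mice. The list's median was -0.52, which turned to 0.08 with normexp and 0.45 with brightness as a covariate. Cd79b, the beta chain of the B cell receptor's signalling unit (chr11:106172780-106172839), had levels of -3.65, -0.01, -1.57, -3.62 and -3.40 in Scid 3 Gy mice, against 3.29, 3.71, -0.57, 3.06 and 2.70 in WT 8 Gy mice. WT 8 Gy replicate 3 lay among the Scid values and the other 4 WT arrays lay above all of them. The difference was -4.89 (SE 1.45, adjusted p = 0.04). Ms4a1, the gene of the B cell antigen CD20 (chr19:11325367-11325426), had levels of -3.49, -2.94, -4.29, -3.70 and -3.49 in Scid 3 Gy mice, against 2.17, 2.09, -2.79, 1.5 and 1.73 in WT 8 Gy mice. No Scid array and not WT replicate 3 showed it well above background, and it was at least 5.78-fold lower in Scid 3 Gy mice (adjusted p = 0.0392). Ly6d, a surface marker of early B cells, was called lower (-3.28, SE 1.01, adjusted p = 0.043), and WT replicate 3, at -2.96, was again the low array of its group. That array's T cell genes were the highest of its group, with a list mean of 1.63.

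Other B cell genes did not pass the test. Cd79a, the alpha chain beside Cd79b, had a difference of -0.89 (SE 0.74, adjusted p = 0.349), but its probe maps to chromosome 12, where the reference table places the gene on chromosome 7, and its other kept probe had a difference of 1.57. Of 11 listed MHC class II genes, 10 were tested and none was called lower, with a list median of -1.20 (0.58 with brightness as a covariate). Cd74, the invariant chain, named after its value was seen, averaged 0.92 in Scid 3 Gy mice and 2.74 in WT 8 Gy mice (difference -1.82, adjusted p = 0.132). Ciita, the master activator of these genes, was the only member called, at 1.78 higher in Scid 3 Gy mice (SE 0.45, adjusted p = 0.0325). Its levels were -0.40, -0.28, -1.75, -0.58 and 0.63 in Scid 3 Gy mice, against -3.27, -3.14, -2.08, -1.83 and -0.97 in WT 8 Gy mice, and the groups overlapped slightly.

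The same lists were compared at 0 Gy, where neither labelled group was irradiated. Over all arrays, the 0 Gy medians were -1.09 for the T cell list, -1.42 for the B cell list and -1.12 for the MHC class II list, and without the 3 arrays against their labels they were -2.19, -2.94 and -2.78. In irradiated mice the medians of the same lists were -0.94, -0.52 and -1.20. Of the 8 genes whose irradiated and 0 Gy differences were called different without those arrays, 5 belonged to these lists (Cd8a, Ccr7, Chst3, Fcmr and Vpreb3, named after their values were seen), a count that the choice of arrays bears on. NK cell genes, of 28 listed and 25 tested, gave no call in irradiated mice, with a median of 0.22. The killer cell receptor gene Ncr1 (0.90, adjusted p = 0.208), the granule protease gene Gzma (0.71, adjusted p = 0.442) and the granule protein gene Nkg7 (0.22, adjusted p = 0.654) all overlapped between the groups.

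**Figure D2:**
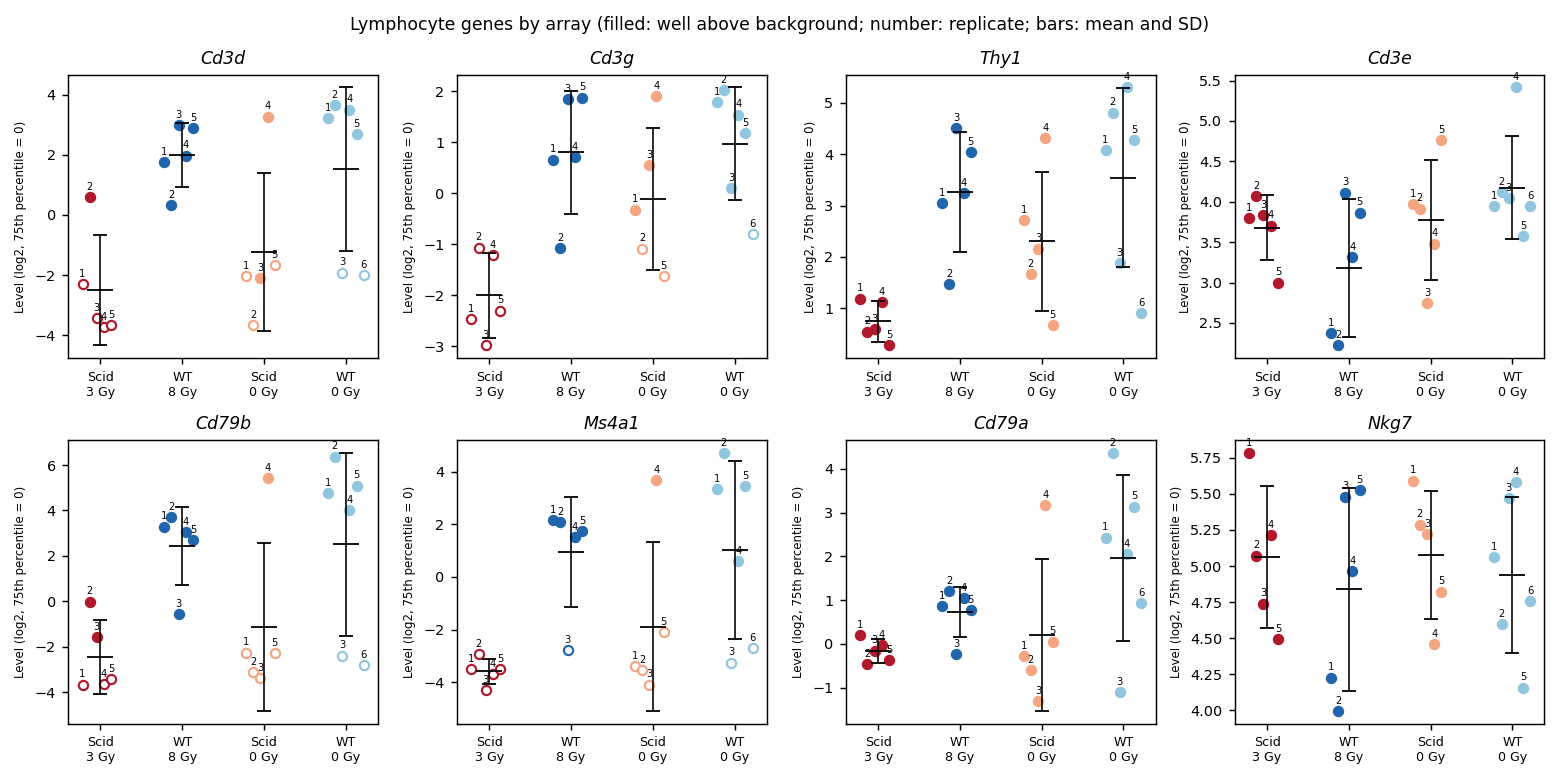
Levels (log2, 75th percentile of the array at 0) of 8 lymphocyte and killer cell genes by array in Scid 3 Gy, WT 8 Gy, Scid 0 Gy and WT 0 Gy mice; filled points are well above background, numbers give the replicate, and bars are mean and SD. Thy1 lies between 0.27 and 1.19 in Scid 3 Gy mice, below every WT 8 Gy array, Ms4a1 is low in WT 8 Gy replicate 3 at -2.79, and the array labelled Scid 0 Gy replicate 4 lies at the WT level of Cd3d and Cd79b.

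Many erythroid transcripts were higher in Scid 3 Gy mice. All 44 listed red cell membrane and erythroid genes were tested, 23 were called higher and none lower, and 21 did not overlap between the groups, all 21 higher in Scid 3 Gy mice. Over all genes, 8.06% were higher there without overlap. The list's median was 1.54 in irradiated mice and 0.23 at 0 Gy (0.59 without the arrays against their labels), where 0.16 and 0.09 were the medians of all genes. Slc4a1, the band 3 anion exchanger of the red cell membrane (chr11:102210256-102210315), had levels of 7.28, 6.78, 5.54, 6.86 and 6.33 in Scid 3 Gy mice, against 3.45, 2.81, 4.51, 4.74 and 5.16 in WT 8 Gy mice. All 5 Scid arrays lay above all 5 WT arrays, with a difference of 2.42 (SE 0.64, adjusted p = 0.0332), or 5.36-fold. At 0 Gy the gene averaged 8.76 in Scid and 9.01 in WT labels (8.72 and 8.73 without the arrays against their labels), above both irradiated groups. Ank1 is the red cell ankyrin that ties band 3 to the membrane skeleton. It was well above background on 3 of 5 Scid 3 Gy arrays and on no WT 8 Gy array. In the scaling used for the calls, it was at least 4.58-fold higher in Scid 3 Gy mice (adjusted p = 0.0295). Its log2 difference of 3.49 fell to 0.96 with normexp and 2.17 with spike-in scaling, so the bound is for that scaling only. Cldn13, a claudin of red cell precursors, was at least 5.59-fold higher by the same measure (adjusted p = 0.0302), and the skeleton protein gene Add2 was 2.36 higher (SE 0.58, adjusted p = 0.0302). Named after their values were seen, the protein 4.2 gene Epb42 (2.16) and the phosphoglycerate mutase gene Bpgm (2.14) were also called higher.

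Some haem synthesis genes and most globin genes were higher too. Of 17 haem synthesis genes, all tested, 4 were called higher and none lower, while 4 others averaged lower in Scid 3 Gy mice. The median was 0.90 (-0.42 with spike-in scaling, where the median of all genes was -1.16). Alas2, the first enzyme of haem synthesis in red cell precursors (chrX:147004993-147005052), had levels of 12.83, 13.16, 11.94, 12.71 and 13.13 in Scid 3 Gy mice, against 10.37, 10.32, 11.42, 11.30 and 11.72 in WT 8 Gy mice. The groups did not overlap, and the difference was 1.73 (SE 0.40, adjusted p = 0.0295). Fech, the enzyme that inserts iron into haem, had levels of 10.82, 10.95, 9.64, 10.34 and 10.13 in Scid 3 Gy mice, against 7.67, 7.53, 8.74, 8.69 and 9.07 in WT 8 Gy mice, also without overlap (difference 2.04, SE 0.44, adjusted p = 0.0263). Slc25a37, the mitochondrial iron importer, was higher by 2.45 (SE 0.56, adjusted p = 0.0295), and the iron-sulphur cluster gene Glrx5 by 1.78 (SE 0.40, adjusted p = 0.0295). Of 13 listed globin genes, 9 were tested and 7 were called higher, with a median of 1.61, among them Hba-a1 (1.73, SE 0.45), Hbb-bs (1.71, SE 0.47), Hbb-bt (1.70, SE 0.44) and the alpha globin chaperone gene Ahsp (2.17, SE 0.48). The completeness of globin reduction on each sample was not tested. Near-identical globin copies cannot be told apart by their probes.

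Within Scid 3 Gy mice, replicate 3 had the lowest erythroid levels, with list means of 2.98 for erythroid genes and 8.48 for globins, where the other 4 arrays lay at 3.52 to 4.01 and 9.35 to 9.53. Within WT 8 Gy mice, the hepatocyte-bright replicates 1 and 2 were the lowest, at 1.62 and 1.33 for erythroid genes, where the other 3 arrays lay at 2.44 to 2.81. Without the hepatocyte-bright arrays the erythroid median was 1.12 and 21 of 44 genes still did not overlap in that direction, against 9.14% of all genes. The median was 2.56 on the first shared scan day, with its 1 WT array, and 1.26 on the second, 0.35 with normexp, 0.44 with brightness as a covariate, 1.03 after quantile normalization and 0.22 after scaling to spike-in probes, so that its direction held in each of these while its size did not. The globin median was 0.12, 0.12, 0.34 and 0.29 in the same 4 settings, and Hbb-bt turned to -0.13 with quantile normalization. Array brightness, which separates the groups, was lower where these transcripts were higher, and its part in the difference was not tested beyond the covariate.

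**Figure D3:**
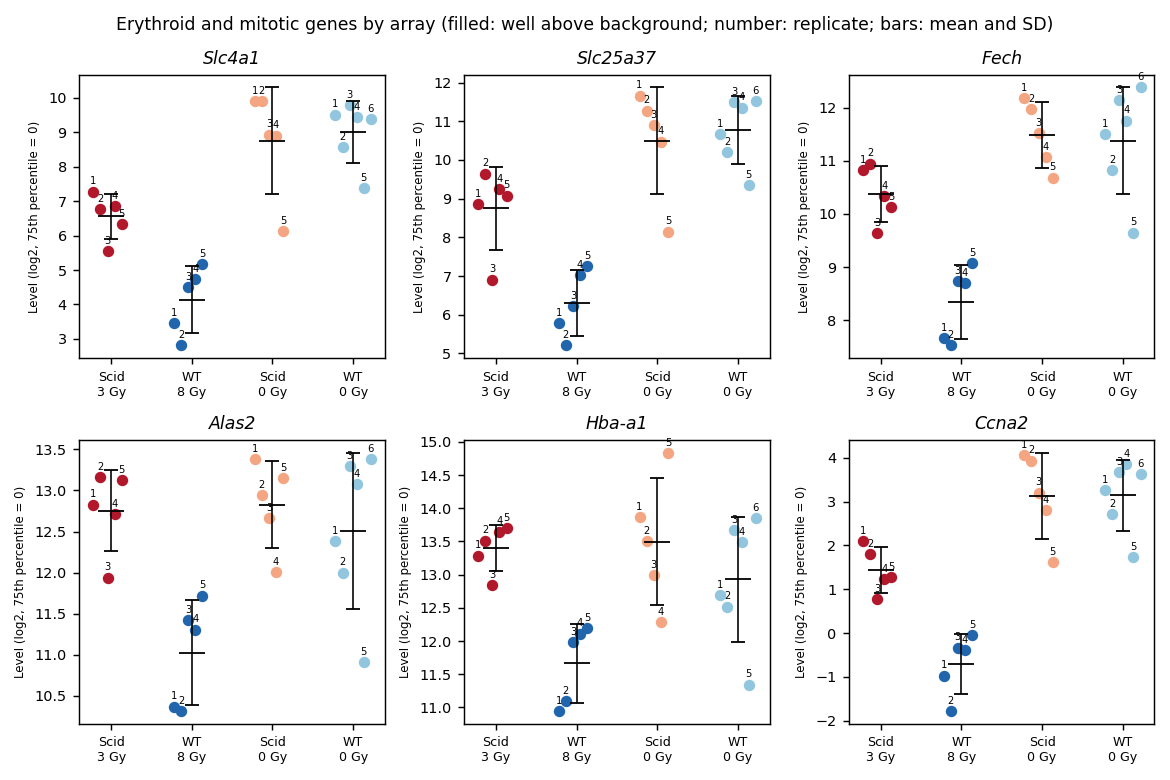
Levels (log2, 75th percentile of the array at 0) of erythroid genes and of the cyclin gene Ccna2 by array in Scid 3 Gy, WT 8 Gy, Scid 0 Gy and WT 0 Gy mice; numbers give the replicate and bars mean and SD. In Slc4a1, Fech, Alas2, Hba-a1 and Ccna2 every Scid 3 Gy array lies above every WT 8 Gy array, and in Slc25a37 Scid 3 Gy replicate 3, at 6.91, lies within the WT range.

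Interferon-stimulated genes split into a larger group lower and a smaller group higher in Scid 3 Gy mice. These genes answer to type I interferon, and many carry a promoter element built of repeated GAAA cores. The promoters of 3 genes called in opposite directions are shown from RefSeq (build GRCm38.p6, 300 bases around the gene's start): Irgm1, lower in Scid 3 Gy mice (chr11:48871371-48871670, minus strand), and Isg15 (chr4:156200769-156201068, minus strand) and Rsad2 (chr12:26456403-26456702, minus strand), higher there. Capitals mark GAAA, any 2 bases, GAAA, searched on both strands, where overlapping matches run together and the opposite strand reads TTTC, any 2 bases, TTTC.
Irgm1: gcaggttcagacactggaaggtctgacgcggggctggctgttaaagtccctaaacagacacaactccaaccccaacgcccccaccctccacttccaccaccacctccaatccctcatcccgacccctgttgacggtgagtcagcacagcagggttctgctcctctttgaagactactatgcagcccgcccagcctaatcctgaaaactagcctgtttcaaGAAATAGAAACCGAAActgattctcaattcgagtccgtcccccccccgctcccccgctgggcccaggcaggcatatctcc
Isg15: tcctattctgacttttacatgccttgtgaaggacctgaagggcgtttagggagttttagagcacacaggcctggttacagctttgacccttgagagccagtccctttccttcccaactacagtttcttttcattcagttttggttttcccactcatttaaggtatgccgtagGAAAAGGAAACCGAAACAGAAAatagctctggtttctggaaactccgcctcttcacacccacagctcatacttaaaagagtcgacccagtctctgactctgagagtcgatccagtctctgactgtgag
Rsad2: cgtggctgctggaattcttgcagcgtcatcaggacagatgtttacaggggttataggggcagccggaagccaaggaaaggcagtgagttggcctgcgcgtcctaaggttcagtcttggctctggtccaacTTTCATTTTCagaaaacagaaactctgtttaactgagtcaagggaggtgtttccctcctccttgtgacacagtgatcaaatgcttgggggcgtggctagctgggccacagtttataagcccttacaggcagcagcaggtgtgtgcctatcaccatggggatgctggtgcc
Irgm1 held 2 matches, starting at -30 and -24 from the gene's start, Isg15 held 3, at -78, -72 and -66, and Rsad2 held 1 on the opposite strand, at -120. Oasl1, called lower, held none in this window. The motif lay in 3.99% of the 27025 promoters of the table and in 4.08% of those of tested genes, against 51.9% (14 of 27) of the tested interferon-stimulated genes with a promoter in the table. It lay in 2 of 7 such genes called lower, in 2 of 2 called higher and in 10 of 18 not called. Irgm1 belongs to the separate list of interferon-inducible GTPases and is not in these counts. All 9 tested genes of that list with a promoter in the table held the motif.

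Of 45 listed type I interferon-stimulated genes, 40 were tested, 10 were called lower and 2 higher in Scid 3 Gy mice, with a median of -1.30. At 0 Gy the median was 0.13 (0.15 without the arrays against their labels). The mean level of the list was 0.20, 1.85, 0.59, 0.23 and 0.40 in Scid 3 Gy replicates 1 to 5, against 1.88, 1.29, 1.52, 1.41 and 2.05 in WT 8 Gy replicates 1 to 5. Scid 3 Gy replicate 2 thus lay at the WT level and the other 4 Scid arrays below all WT arrays. Oasl1, an antiviral oligoadenylate synthetase-like gene (chr5:115387861-115387920), had levels of -1.21, 3.82, -0.93, -1.33 and -0.91 in Scid 3 Gy mice, against 3.29, 2.40, 2.49, 1.06 and 2.53 in WT 8 Gy mice. Scid replicate 2 was the highest of all 10 arrays for this gene, and the difference was -2.47 (SE 0.75, adjusted p = 0.0425).

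Parp9, an ADP-ribosyltransferase family gene of the interferon response, had levels of -1.85, -0.08, -1.04, -2.37 and -2.18 in Scid 3 Gy mice, against 1.14, 0.73, 0.55, 0.26 and 0.81 in WT 8 Gy mice. All Scid arrays lay below all WT arrays (difference -2.20, SE 0.55, adjusted p = 0.0306). Ifi27l2a (-2.36, SE 0.74, adjusted p = 0.0449) and Phf11d (-2.19, SE 0.61, adjusted p = 0.0386), both interferon-inducible, were lower too. The transcription factor genes Stat2 (-1.97, SE 0.58) and Irf9 (-1.68, SE 0.49), the DNA sensor family gene Ifi204 (-1.69, SE 0.54) and Ifi35 (-1.42, SE 0.45), named after their values were seen, were called lower. Also named after their values were seen, Parp12 and the double-stranded RNA kinase gene Eif2ak2 were not well above background on any Scid 3 Gy array, and were at least 1.2-fold and at least 1.09-fold lower (adjusted p = 0.0263 and 0.0392). Among the Scid and WT groups, Eif2ak2 met the detection filter only in WT 8 Gy mice, which favoured a call in this direction.

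Isg15, a ubiquitin-like modifier (chr4:155573649-155573708), went the other way. Its levels were 7.09, 8.92, 6.81, 7.30 and 7.67 in Scid 3 Gy mice, against 5.51, 5.13, 5.61, 5.37 and 6.34 in WT 8 Gy mice. The groups did not overlap, with a difference of 1.96 (SE 0.54, adjusted p = 0.036) and 1.72 for another kept probe. Rsad2, the antiviral gene of viperin (chr12:27127859-27127918), had levels of 6.93, 7.58, 5.36, 7.41 and 7.13 in Scid 3 Gy mice, against 4.33, 3.60, 4.66, 5.29 and 5.79 in WT 8 Gy mice, and was called higher (2.15, SE 0.56, adjusted p = 0.0329). Both genes averaged higher still at 0 Gy, with Isg15 at 8.45 in Scid and 7.92 in WT labels and Rsad2 at 8.76 in Scid and 8.57 in WT labels. Without the arrays against their labels the 0 Gy difference was 1.06 for Isg15 and 0.70 for Rsad2. Irf7, another member with a higher mean in Scid 3 Gy mice, did not pass (1.41, adjusted p = 0.078; named after its value was seen).

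The interferon-inducible GTPases, which act on vacuoles holding pathogens, gave 1 call among 16 tested of 18 listed, with a median of -1.13. Since 9.59% of all genes were called, the count is no result about this list. Irgm1, a regulator of the family (chr11:48679069-48679128), had levels of -1.0, 1.09, -0.60, -1.09 and -2.18 in Scid 3 Gy mice, against 1.92, 1.43, 1.60, 1.31 and 2.05 in WT 8 Gy mice. All Scid arrays lay below all WT arrays, with a difference of -2.42 (SE 0.47, adjusted p = 0.0258) and -0.06 at 0 Gy (-0.37 without the arrays against their labels). Its difference of differences, -2.36 (-2.04 without them), was not called. In the Schlafen family, first described for the control of lymphocyte growth, all 8 genes were tested and 2 were called lower, Slfn4 (-2.51, SE 0.76, adjusted p = 0.0422) and Slfn8 (-1.69, SE 0.52, adjusted p = 0.0432). Slfn4 was 2.72 in Scid 3 Gy replicate 2, the highest of all 10 arrays, where the other Scid arrays lay at -2.74 to -0.11 and the WT arrays at 1.31 to 2.30. The interferon-stimulated list kept a median below that of all genes without the hepatocyte-bright arrays (-1.34), with any 1 array left out (-1.58 to -1.09), with brightness as a covariate (-1.15), with normexp (-0.70) and on the second shared scan day (-1.21). With normexp, Parp12 (0.17) and Eif2ak2 (0.28) turned direction.

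**Figure D4:**
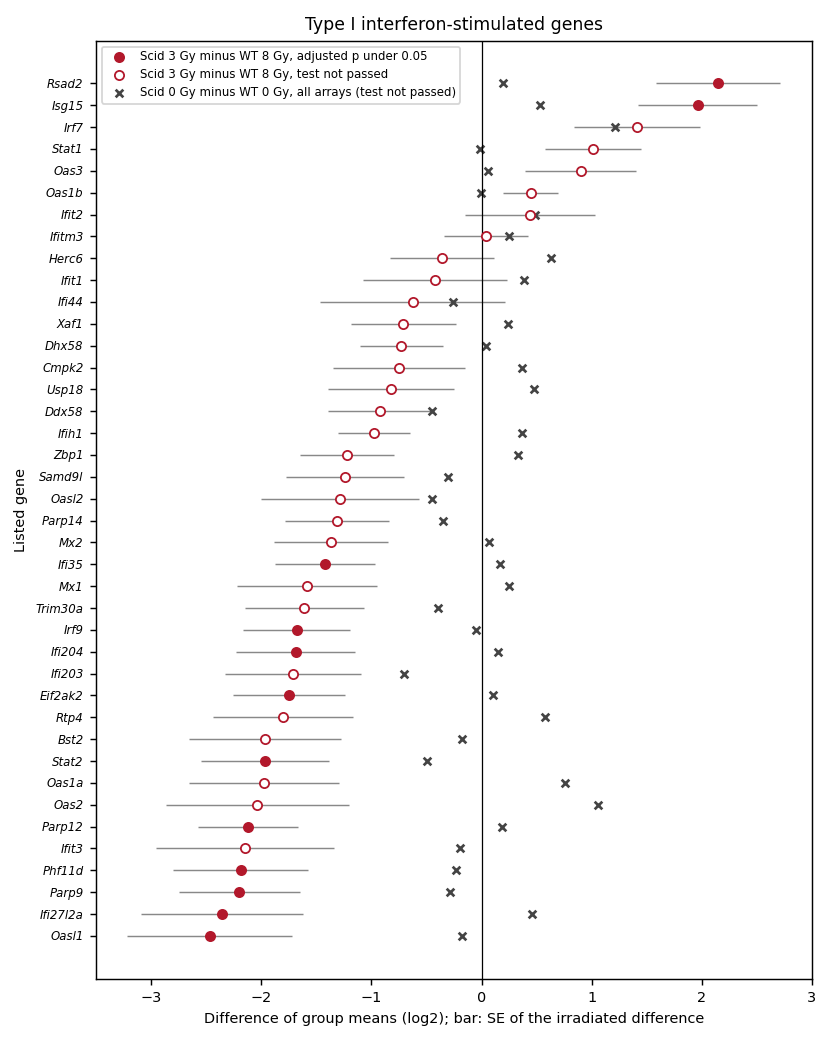
Differences of group means (log2) of the 40 tested type I interferon-stimulated genes: red circles are Scid 3 Gy minus WT 8 Gy with bars of 1 SE, filled where the adjusted p was under 0.05, and crosses are Scid 0 Gy minus WT 0 Gy over all arrays. Rsad2 (2.15) and Isg15 (1.96) are called higher and 10 genes are called lower, down to Oasl1 (-2.47), while most crosses lie near 0.

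Targets of p53 were called at a share close to the 9.59% of all genes, so that the count of calls is no result about them. Of 40 listed genes, 38 were tested, 2 were called higher and 1 lower, with a median of -0.59 against 0.16 for all genes (-0.13 with brightness as a covariate). Of the 38, 30 had a lower mean in Scid 3 Gy mice, where 54.8% of all genes had a higher one. Lower without overlap were 3 of the 38 (6.49% of all genes), and 10 without the hepatocyte-bright arrays (9.55% of all genes). Cdkn1a, the p21 cell cycle inhibitor (chr17:29237377-29237436), had levels of 1.26, 0.74, 2.93, 2.38 and 2.63 in Scid 3 Gy mice, against 2.16, 1.65, 1.88, 3.27 and 2.23 in WT 8 Gy mice. The groups overlapped (difference -0.25, SE 0.54, adjusted p = 0.73), and both lay above the 0 Gy means of -1.23 in Scid and -1.62 in WT labels (-1.47 and -1.78 without the arrays against their labels). The p53 ligase gene Mdm2 (-0.10, SE 0.39, adjusted p = 0.857), the AKT repressor gene Phlda3 (0.07, SE 0.59, adjusted p = 0.938), the pro-apoptotic gene Bax (-0.52, SE 0.38, adjusted p = 0.286) and the cyclin G1 gene Ccng1 (-1.15, SE 0.61, adjusted p = 0.154) did not pass either. A p that misses the threshold does not show that these responses are alike. The members called were the stress gene Gadd45a (1.34, SE 0.40, adjusted p = 0.0401) and the phosphatase gene Ptpn14 (1.78, SE 0.56, adjusted p = 0.0463), higher in Scid 3 Gy mice, and the apoptosis-linked gene Ei24 (-2.46, SE 0.60, adjusted p = 0.0302), lower there. With normexp the direction of Gadd45a (-0.0037) and Ei24 (0.006) turned at values next to 0. Among the Scid and WT groups, Ei24 met the detection filter only in WT 8 Gy mice, which favoured a call of lower. Among 18 tested of 31 listed genes of double-strand break repair and V(D)J recombination, Rnf8, a ubiquitin ligase that marks breaks, was the only call (-1.68, SE 0.50, adjusted p = 0.0396), and 13 listed genes did not pass the detection filter. Beside the 9.59% of all genes, that count is no result about the repair list.

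Some mitotic transcripts were higher in Scid 3 Gy mice. Of 40 listed mitosis genes, 21 were tested and 5 were called higher, with a median of 0.46. Ccna2, the gene of cyclin A2 (chr3:36463978-36464037), had levels of 2.10, 1.80, 0.77, 1.23 and 1.28 in Scid 3 Gy mice, against -0.97, -1.78, -0.34, -0.39 and -0.04 in WT 8 Gy mice. The groups did not overlap (difference 2.14, SE 0.44, adjusted p = 0.0263), and the 0 Gy means were 3.13 in Scid and 3.14 in WT labels (3.21 and 2.89 without the arrays against their labels), above both irradiated groups. The spindle gene Nusap1 (1.88, SE 0.47), the proliferation marker Mki67 (1.78, SE 0.48) and the ubiquitin-conjugating gene Ube2c (1.78, SE 0.45) were also higher. Of 26 tested DNA replication genes, Lig1, the replicative DNA ligase (1.77, SE 0.45), and Rrm2, a subunit of ribonucleotide reductase (1.24, SE 0.36), were called higher and none lower, with a list median of -0.45 (0.05 with normexp). Rrm2 turned to -0.07 with spike-in scaling. Over all genes 9.59% were called, so the count of replication calls is no result about that list. Erythroid transcripts moved in the same direction on the same arrays, and the part of red cell precursors in these values was not tested.

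Myeloid and platelet lists held at most 2 calls each, where 9.59% of all genes were called in either direction. These counts were not above that share and are no result about the lists. Of 30 tested monocyte genes, 2 were called lower in Scid 3 Gy mice, Plac8 (-2.58, SE 0.78, adjusted p = 0.0408) and the surface antigen gene Ly6c1 (-2.24, SE 0.55, adjusted p = 0.0302), both of which other leukocytes also express. Csf1r, the receptor that defines monocytes, had a difference of 0.01 (SE 0.35, adjusted p = 0.992). None of 28 mature neutrophil genes was called, with a median of -0.40, and the neutrophil antigen gene Ly6g had -1.13 (SE 0.50, adjusted p = 0.102). Elane, neutrophil elastase of precursor granules, was called higher (1.71, SE 0.53, adjusted p = 0.0442), alone among 15 tested granule genes. None of 11 basophil, mast cell and eosinophil genes was called. All 31 platelet and megakaryocyte genes had a higher mean in Scid 3 Gy mice, with a median of 0.96 in irradiated mice and 0.66 at 0 Gy (1.27 without the arrays against their labels), but none was called. For 4 of the 31 the arrays did not overlap, where 8.06% of all genes were higher without overlap. Gng11, a G protein subunit of platelets, came closest to a call (1.29, SE 0.45, adjusted p = 0.0551). The platelet median turned to -0.48 with normexp and to -0.36 with spike-in scaling, where the medians of all genes were 0.00 and -1.16.

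Housekeeping lists were mixed. Over all genes, 5.48% were called higher and 4.12% lower in Scid 3 Gy mice. The counts of respiratory chain calls and of lower ribosomal calls are no result about their lists. Of 39 tested ribosomal protein genes, 4 were called higher in Scid 3 Gy mice (Rps29 1.45, Rplp1 1.41, Rplp2 1.34, Rpl38 1.19) and 2 lower (Rpl14 -1.54, Rpl18 -1.19). With normexp all 4 higher ones turned direction, and with spike-in scaling Rpl38 did, and the probes of Rps29, Rplp1 and Rpl38 map to other chromosomes than their genes in the reference table, so near-identical copies cannot be told apart. Of 33 proteasome genes, 5 were called lower and none higher, with a median of -0.92. Among them were Psmb8 (-1.47, SE 0.42) and Psmb9 (-1.26, SE 0.39), the interferon-induced catalytic subunits, and Psma4 (-1.62, SE 0.51) and Psmc6 (-1.5, SE 0.47) of the constitutive core and cap. Without the hepatocyte-bright arrays the proteasome median was -0.54. Of 44 respiratory chain genes, Ndufs3 (-1.72) and Sdhd (-1.75) were called lower and Ndufa1 (1.16) higher, and Ndufa1 turned with normexp (-0.48) and with spike-in scaling (-0.16). WT 8 Gy replicates 1 and 2 had the highest respiratory means, 4.76 and 4.75, where the other 8 irradiated arrays lay at 3.34 to 3.81.

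Inflammatory lists gave 3 calls, where 9.59% of all genes were called, so that this count is no result about them. Saa1, an acute phase protein gene, was lower in Scid 3 Gy mice (-1.67, SE 0.55, adjusted p = 0.0493), with its highest level in WT 8 Gy replicate 2. The early response gene Jund was higher (1.44, SE 0.45, adjusted p = 0.0458). Egr1, a further early response gene, was called (adjusted p = 0.0469) but was not well above background on any Scid 3 Gy array, so no fold is given. Among the Scid and WT groups, Egr1 met the detection filter only in WT 8 Gy mice, which favoured a call of lower. None of 14 NF-kB genes was called, and the feedback inhibitor gene Nfkbia had a difference of -1.09 (SE 0.39, adjusted p = 0.0598). None of 20 Toll-like receptor and adaptor genes was called. The hepatocyte list had a median of -3.16 with none of 17 genes called. The albumin gene Alb averaged -0.08 in Scid 3 Gy mice and 4.42 in WT 8 Gy mice (adjusted p = 0.168), and without the hepatocyte-bright arrays the list's median was -0.40. None of 10 heart muscle genes was called, and of 5 tested lung and airway genes the surfactant gene Sftpd was higher (1.56, SE 0.50, adjusted p = 0.0477).

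**Figure D5:**
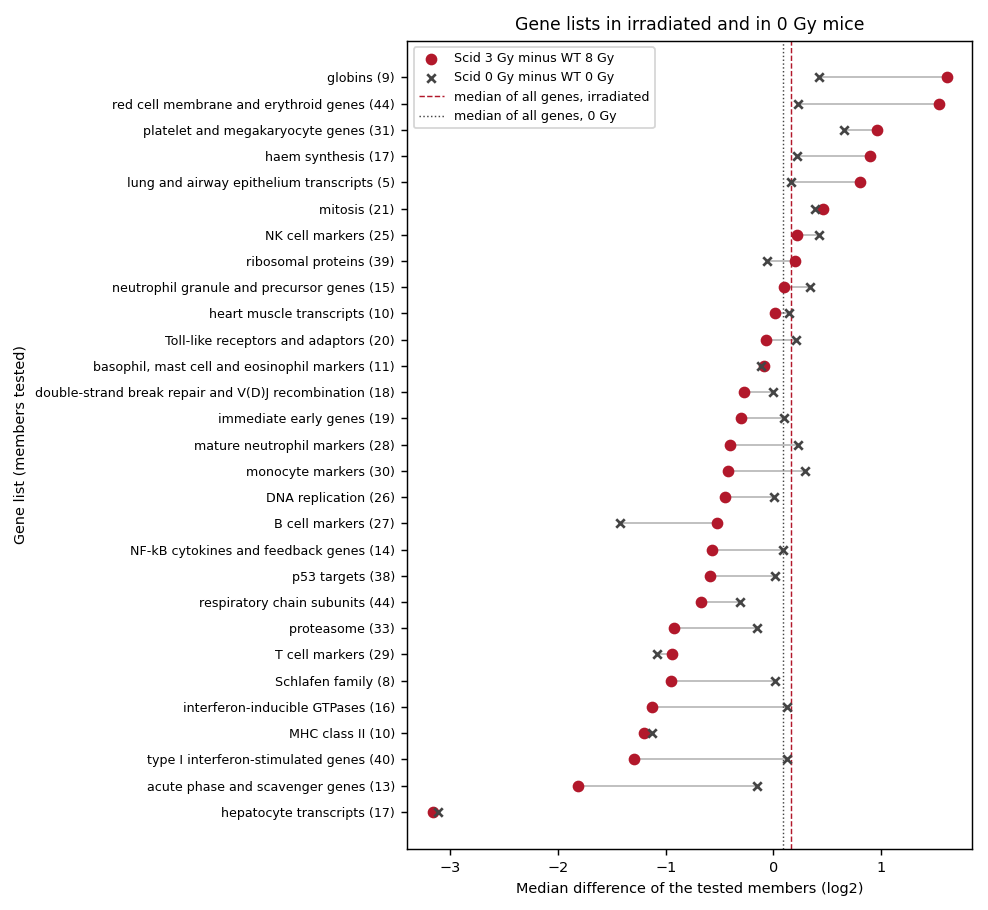
Median log2 difference of the tested members of each of the 29 gene lists, in irradiated mice (red points, Scid 3 Gy minus WT 8 Gy) and at 0 Gy over all arrays (crosses, Scid minus WT), with the median of all genes as broken lines at 0.16 and 0.09. Globins (1.61) and erythroid genes (1.54) stand highest and hepatocyte transcripts (-3.16) lowest, with a 0 Gy median of -3.12 (-4.71 without the arrays against their labels).

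Among the genes of largest difference, several lower ones were bright on the hepatocyte-bright arrays. Got1, a transaminase of amino acid metabolism, had levels of -2.38, -3.07, -2.44, -0.78 and -1.63 in Scid 3 Gy mice, against 3.68, 4.73, 0.52, 0.11 and -0.17 in WT 8 Gy mice. The groups did not overlap, but WT replicates 1 and 2 stood well above the other WT arrays (difference -3.83, SE 1.15, adjusted p = 0.0407). Pgm1, a glycogen enzyme (-2.79, SE 0.89), and Cd1d1, a lipid antigen presenting gene (-3.01, SE 0.88), had the same pattern, and with brightness as a covariate Pgm1 turned to 0.19. Mmut, a mitochondrial mutase, was at least 2.87-fold lower and was likewise highest on those arrays. Other large differences followed those arrays less closely. Acp5, the tartrate-resistant acid phosphatase of macrophages and osteoclasts (chr9:21931190-21931249), had levels of 0.98, 2.89, 0.76, 1.85 and 0.82 in Scid 3 Gy mice, against 4.87, 5.12, 4.73, 3.59 and 4.18 in WT 8 Gy mice (difference -3.04, SE 0.69, adjusted p = 0.0295), and its other kept probe had -3.01. WT replicates 1 and 2 were its highest arrays, with replicate 3 close to them. The difference of Acp5 was -2.71 without the hepatocyte-bright arrays and -1.46 with brightness as a covariate. Its 0 Gy difference was -1.56 (-3.37 without the arrays against their labels). Dtx1, a regulator of Notch signalling, was lower (-2.88, SE 0.75, adjusted p = 0.0329). For Dtx1 the 0 Gy difference was -1.25 (-3.08 without the arrays against their labels). Zbtb32, a transcriptional repressor of lymphocytes, was at least 2.32-fold lower (adjusted p = 0.0392), and WT 8 Gy replicate 3, low in B cell genes, was its low WT array at -3.19. Pde4dip, which anchors a phosphodiesterase, was lower (-3.43, SE 0.71, adjusted p = 0.0263).

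Genes on none of the lists were also among those with a large positive difference. Cdr2 (chr7:128101133-128101192) had levels of 4.89, 5.14, 4.05, 4.65 and 5.88 in Scid 3 Gy mice, against 1.60, 1.97, 2.92, 2.92 and 3.33 in WT 8 Gy mice. The groups did not overlap, with a difference of 2.38 (SE 0.44, adjusted p = 0.0219). At 0 Gy it averaged 6.43 in Scid and 6.02 in WT labels (6.43 and 5.53 without the arrays against their labels). Apol11b, an apolipoprotein L family gene, had levels of 3.34, 5.24, 2.52, 2.38 and 3.03 in Scid 3 Gy mice, against -0.60, 0.33, 1.61, 0.77 and 1.45 in WT 8 Gy mice, without overlap (difference 2.59, SE 0.59, adjusted p = 0.0295). Csn1s2b, a casein family gene, was higher by 2.46 (SE 0.54, adjusted p = 0.0295), and Redrum, an erythroid long noncoding RNA, by 2.50 (SE 0.55, adjusted p = 0.0285). Dppa2 (2.95, SE 0.59), Mmp12 (2.74, SE 0.61) and Sox15 (2.71, SE 0.51) differed by more. Sox15 was well above background on 4 of 5 Scid 3 Gy arrays and 1 of 5 WT 8 Gy arrays.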

How the data were processed

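Whole blood RNA of 32 mice was measured, 1 array per mouse. For each array the authors deposited the scanner's table, and its processed signal is an intensity per spot, background-subtracted and detrended by Agilent Feature Extraction (version 11.5.1.1 and build mm9 per the file headers, 12.0.2 per the submitters' processing notes) and not normalized between arrays. A series matrix, also deposited by the authors, has log2 values for 15276 to 20163 probes on each array (column medians 5.51 to 6.44). These were the log2 signal shifted by 1 constant per array, to within 0.01 for 98.1 to 99.1% of values. Scale and direction are thereby settled and the basis of the constant is not, and the matrix served as an alternative.

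Control spots and outlier spots (125 to 324 per array) were left out, up to 3 saturated spots an array stayed in, replicate spots were averaged (399 probes), and the log2 signal was set to each array's 75th percentile. Of 39429 probes, 18367 were kept. Probes were named through accession (27597), symbol (3488) or synonym (393) in the RefSeq table, and 7951 kept the file's name. Each gene was represented by its brightest kept probe. Of 258 called genes with another kept probe, 56 had one of opposite sign. Group means of the 6 groups were fitted with limma 3.58.1 (lmFit, eBayes) in R 4.3.3, with 275 missing values left out gene by gene. The same fit was then run on simulated data that took their gene means and spreads from these arrays. Replicates are individual mice per the series' design text. A bound ("at least N-fold") sets the bright group's mean against, per array of the dim group, the larger of its lowest well-detected signal and that probe's value. The bright group's mean includes arrays where the probe was not well above background, and a bound is for the 75th percentile scaling only. Signal over background takes the place of depth, and the number of arrays limits the precision. Same-numbered arrays did not pair: their deviations correlated at -0.41, -0.13, -0.14, 0.24 and -0.17.

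Alternatives covered background correction, scaling, the filter on dim probes, the authors' values, array weights, scan day, slide, brightness, the replicate block, probe averaging, the arrays in the fit and leaving out each array. The hepatocyte-bright arrays and the 0 Gy arrays against their labels were left out as alternatives chosen after seeing the data. The comparison and all 29 gene lists (803 genes, 650 tested) were chosen with earlier results of these data known. Genes were named by a rule: the 15 largest called differences each way without overlap, up to 4 called members of each list each way or its 2 brightest where none was called, and 20 genes always looked up. Some are not named in the text, and others are marked there. Tables were read in Python 3.11.15 (pandas 2.3.3, numpy 2.4.6), exact tests used scipy 1.17.1, and plots used matplotlib 3.10.9.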

Additional observations from a re-analysis of the deposited data

Results flagged for a closer look

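Within groups of 5 arrays, an array was set apart where its gap to the nearest array, over the group's range, passed Dixon's 95% limit. Of 272 such groups of values, 18 held an array set apart, and chance gives about 1 in 20.

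WT 8 Gy replicate 3 was low in B cell and antigen presentation genes, at -0.57 for Cd79b, -2.96 for Ly6d, -2.79 for Ms4a1, -1.32 for the mean of the B cell list and -0.48 for that of the MHC class II list. Scid 3 Gy replicate 2 was high in Oasl1 (3.82), in the mean of the type I interferon-stimulated genes (1.85) and in Cd6 (-0.043). Scid 3 Gy replicate 3 was low in the erythroid genes Ahsp (4.30) and Slc25a37 (6.91) and in the globin mean (8.48), and high in Phf11d (1.52) and Pde4dip (-1.55). Scid 3 Gy replicate 1 was low in Nfkbia (1.51), Psma4 (-1.35) and the mean of the Toll-like receptors and adaptors (0.41). WT 8 Gy replicate 2 was low in the mitosis mean (-1.37), and WT 8 Gy replicate 4 was high in Pde4dip (3.68).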

How the results depend on the processing

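Of 15157 genes, 1454 were called between Scid 3 Gy and WT 8 Gy mice, and the count was 1 with normexp, 649 with quantile normalization, 2209 with the array median, 2489 with the percentile of probes detected on all arrays, 5160 with spike-in scaling, 3757 with the authors' values, 13131 without a filter on dim probes (of 30139 genes), 794 with only probes detected on all arrays compared (of 9039), 3021 with only the 10 arrays in the fit, 3871 with array weights, 81 with scan day as a block, and 0 with slide as a block, with brightness as a covariate or without the hepatocyte-bright arrays. Without the 0 Gy arrays against their labels it was 2636. It was 1447 with slide as a random block and 1453 with the mean over probes. With 1 array left out it ran from 0 to 3506. Without the filter on dim probes, 11592 of the 13131 calls were higher in Scid 3 Gy mice, and the median of all genes was 1.08. The replicate block, whose numbers do not pair the mice (replicate 4 alone correlated best with its own number), gave 0 calls in this comparison, at 0 Gy and for the difference of the differences.

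At 0 Gy, limma called 20 genes with array weights, 302 without the arrays against their labels and 0 to 3 with 1 array left out, the highest without WT 0 Gy replicate 3. The difference of the differences called 21, 8 and 0 to 1. The causes were not tested. The brightness difference has 1 setting.

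Among lists whose median lay at least 1 SD between replicates from that of all genes, the median relative to all genes reversed with normexp for repair (0.20), B cell (0.078), platelet (-0.48), DNA replication (0.053), NF-kB (0.12) and immediate early genes (0.081). With only probes detected on all arrays compared, the B cell (0.28) and DNA replication (0.26) medians did. With brightness as a covariate, B cell (0.44), MHC class II (0.57) and hepatocyte (1.35) did. Without the filter, platelet (-0.12), haem synthesis (-0.18) and lung (-0.27) did, and lung also with array weights (-0.062) and without the hepatocyte-bright arrays (-0.14). Among the called genes that are named, normexp reversed Egr1 (0.24), Ei24 (0.00599), Eif2ak2 (0.28), Gadd45a (-0.0037), Jund (-0.0024), Ndufa1 (-0.48), Parp12 (0.17), Rpl38 (-0.29), Rplp1 (-0.23), Rplp2 (-0.15) and Rps29 (-0.046). Quantile normalization reversed Hbb-bt (-0.13), spike-in scaling Ndufa1 (-0.16), Rpl38 (-0.12) and Rrm2 (-0.072), and brightness as a covariate Pgm1 (0.19). Genes named without a call turned as well, among them Cd3e (-0.76), Gng11 (-0.16) and Gzma (-0.63) with normexp and Ncr1 (-0.42) with brightness as a covariate. Of the other settings of the 85 called genes named by the rule or the text, 1233 kept direction and side of the threshold and 1089 kept direction but lost the call, and of list medians 729 stayed close and 65 moved.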
